A study of Mus musculus with 6 samples.

Results

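The genes described here are induced by interferon, and their signals were compared between *Cmah*-null and WT mice in tissue of the cochlea. The list held 41 genes, and 39 of them had a probe among the 18138 gene symbols (25697 probes) of the Illumina MouseRef-8 v2 array, while no probe matched *Isg15* or *Xaf1* by symbol. Where a gene had several probes, the 1 shown was chosen by the highest mean of its 6 log2 signals. The list itself was selected on textbook interferon biology with earlier results of these data known, the higher signal of *Oasl2* among them, so the differences between genotypes are given as a description and the p-values beside them are not independent evidence. There were 3 WT and 3 *Cmah*-null samples, all C57BL/6 by the labels (C57BL/6J in the study's methods) and 12 months old, with 1 array each. The null mice carry a targeted knockout of *Cmah*, the hydroxylase that turns the sialic acid Neu5Ac into Neu5Gc, and no treatment was given in the labels. The labels name a mouse as the source of each sample without numbering the animals, so p-values measure the spread between these samples only.

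Between 13873 and 15223 probes were detected on an array (detection p under 0.05). *Cmah*-null replicates 1 and 2 were by far the most alike pair of arrays, with an SD of the log2 difference over all probes of 0.13. Pairs that held *Cmah*-null replicate 3 were at 0.56 to 0.64, and the remaining pairs at 0.31 to 0.44. Replicate 3 also had the fewest probes detected, 13873. It thus stood apart over all probes and not in the interferon-induced genes alone. Results are therefore also given with replicate 3 left out and with *Cmah*-null replicates 1 and 2 averaged. Of 7 hair cell markers, *Myo7a*, *Myo6*, *Otof* and *Gfi1* were detected on all 6 arrays and *Pou4f3*, *Slc26a5* and *Atoh1* on none, while all 7 skeletal muscle and 3 of 5 brown fat markers were detected on all 6. The *Cmah* probe was detected on 1 WT and 2 *Cmah*-null arrays (means of 7.47 and 7.73), and its place relative to the deleted part is not given in the sources used here, so it does not check the genotype labels. In bulk tissue, fewer cells of a type and less RNA per cell cannot be told apart.

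Interferons are secreted by cells that sense viral or displaced nucleic acid. Type I interferons bind a receptor of *Ifnar1* and *Ifnar2*, and the kinases on it activate transcription factors. A complex that holds STAT2 and IRF9 then binds the interferon-stimulated response element (ISRE), whereas type II interferon acts through its own receptor on the gamma-activated sequence (GAS). The induced genes include sensors of foreign RNA and DNA, the OAS family of oligoadenylate synthetases, regulators of the pathway, effectors that block viral steps and GTPases that attack viruses or the vacuoles of intracellular microbes.

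The RefSeq promoter windows (GRCm38.p6, 250 bases before to 50 after a gene's start) were matched by gene identifier, and by symbol for *Isg15* and *Xaf1*. A window was found for 29 of the 41 genes. ISRE-like letters (GAAANNGAAA, either strand) were found in 17 of the 29 genes (58.6%), against 4.09% of 13072 genes of the array with a window and 3.44% of all windows. GAS-like letters (TTCNNNGAA, which read the same on both strands) were found in 10 of the 29 genes (34.5%), against 9.18% of array genes and 8.30% of all windows. The stretches below were taken from genes whose signals the results turn on. These are an OAS gene, the effector with the widest swing between *Cmah*-null arrays and a pair of GTPases that were high on the same arrays. The last stretch is from a GTPase that was not high there on its brightest probe, though its dimmer probe detected on 6 arrays was. Each stretch is on the gene's strand, 5′ to 3′, with ISRE matches in capitals. They lie at chr5:120887614-120887661 (minus strand) for *Oas1g*, chr19:34583343-34583446 (plus) for *Ifit3*, chr3:142559969-142560043 (plus) for *Gbp3*, chr11:58199492-58199555 (plus) for *Igtp* and chr11:48871421-48871480 (minus) for *Irgm1*.
Oas1g: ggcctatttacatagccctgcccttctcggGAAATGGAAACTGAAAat
Ifit3: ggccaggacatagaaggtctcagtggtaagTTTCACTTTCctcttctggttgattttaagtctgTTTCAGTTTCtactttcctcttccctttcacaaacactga
Gbp3: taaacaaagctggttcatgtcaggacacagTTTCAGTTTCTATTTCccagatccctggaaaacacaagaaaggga
Igtp: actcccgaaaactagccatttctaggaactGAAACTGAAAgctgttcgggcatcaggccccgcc
Irgm1: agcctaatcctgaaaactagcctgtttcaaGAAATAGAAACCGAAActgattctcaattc
The matches of *Oas1g*, *Gbp3* and *Irgm1* are pairs that overlap in 1 run, and the first of them starts 18, 45 and 30 bases before the gene. In *Ifit3* the 2 matches start 156 and 122 bases before the gene, and in *Igtp* the only one starts 34 bases before it. The windows of *Oasl1*, *Oasl2*, *Irf7* and *Irf9* did not hold these letters. A match is a description of the letters and not a bound site.

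The interferon-induced genes were on balance higher in *Cmah*-null cochlear tissue, and most of the difference lay in *Cmah*-null replicates 1 and 2. On the log2 scale the median difference between genotypes (*Cmah*-null minus WT) was 0.31 over the 39 genes, with 33 above 0 and 6 below, against a median of 0.01 over all symbols. Over the 29 genes detected on all 6 arrays it was 0.58, against 0.04 over the 9907 symbols so detected. The median signal of the 39 genes was 8.44, 8.62 and 8.66 in WT and 9.43, 9.39 and 8.58 in *Cmah*-null samples. Hence *Cmah*-null replicates 1 and 2 stood above every WT array and replicate 3 stood among the WT arrays.

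Higher expression at 1.5-fold with an unadjusted p under 0.05 in limma, the count rule used below for calling a gene higher, was found for 8 of the 39 genes, namely *Oasl1*, *Oasl2*, *Oas1g*, *Oas2*, *Irf7*, *Mx2*, *Ifitm3* and *Rtp4*. This rule called 1.61% of all symbols higher, and 2.73% of symbols detected on 6 arrays, a group that held all 8. None of the 39 was lower by this rule, which called 1.46% of all symbols lower. At 1.5-fold alone 14 were higher and 0 lower, where 605 and 632 of 18138 symbols were. With Benjamini-Hochberg adjustment over all probes, limma gave an adjusted p under 0.05 for 0 of the 39 (0.00% of all symbols), and the smallest was 0.256 for *Ifitm3*. The 3 *Cmah*-null arrays lay above all 3 WT arrays for 11 genes, the 8 above with *Oas1a*, *Zbp1* and *Adar*, where 10.0% of all symbols did so, and below them for 0, where 6.67% of all symbols did so.

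Single arrays set how many genes passed. Without *Cmah*-null replicate 3, 19 of the 39 were called higher, where 2.02% of all symbols and 3.29% of symbols detected on 6 arrays were, and the median was 0.55. The smallest adjusted p in limma was then 0.0688. That fit took its *Cmah*-null spread from replicates 1 and 2 alone, the pair with an SD of 0.13. Its p-values and count rest in part on this narrow spread. The labels do not number the animals, so whether replicates 1 and 2 are independent cannot be told. The count was 3 without WT replicate 1 (1.74% of all symbols), 7 without WT replicate 2 (0.948%) and 5 without WT replicate 3 (2.51%). It was 3 without *Cmah*-null replicate 1 (1.81%), 3 without *Cmah*-null replicate 2 (1.90%) and 3 with these 2 arrays averaged to 1 sample (1.78%). *Oasl2*, *Oas2* and *Ifitm3* were called in each of these fits.

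**Figure D1:**
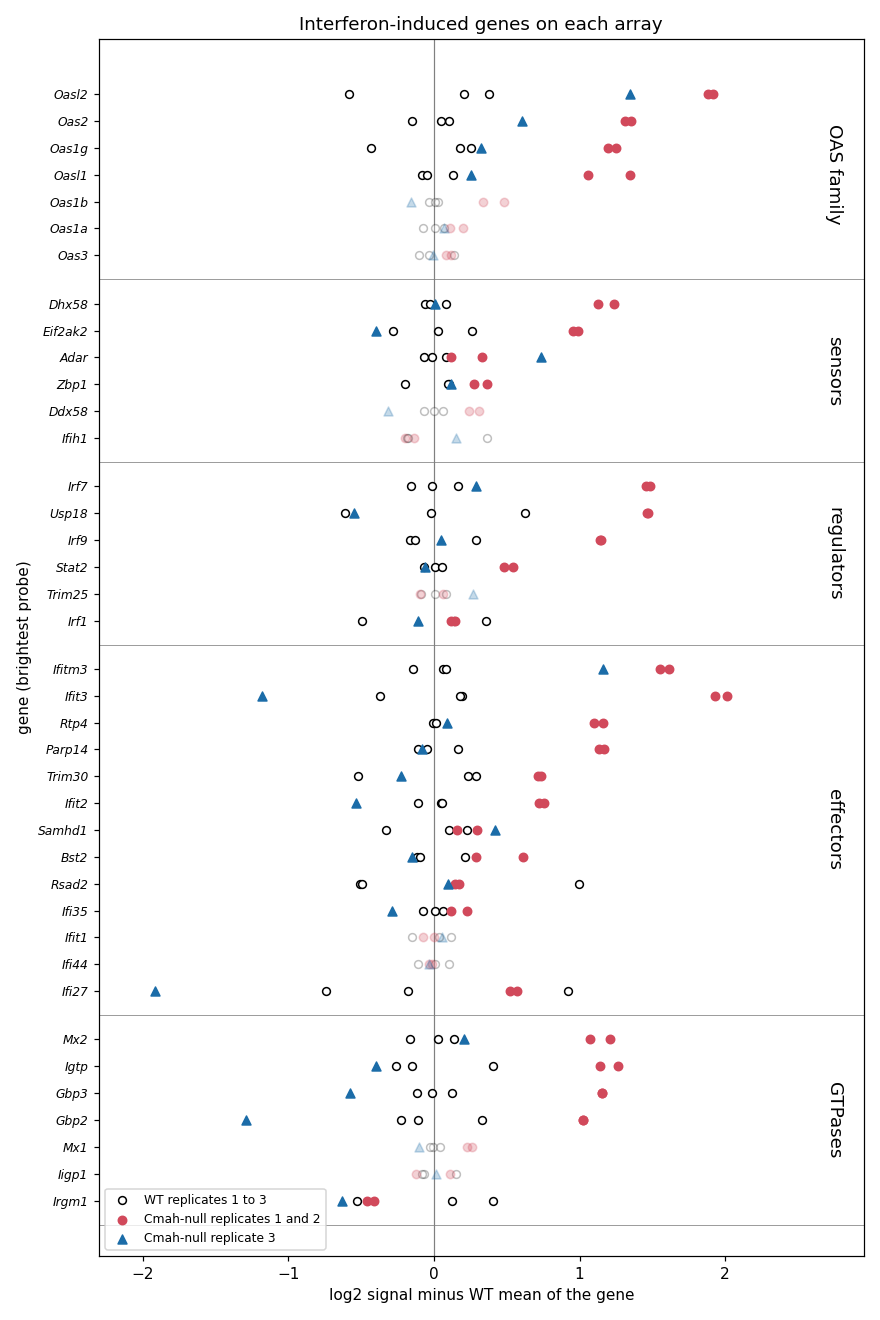
Log2 signal of each interferon-induced gene on each array minus the mean of its 3 WT arrays (x axis), with genes in rows by class. Open circles are WT arrays, red circles *Cmah*-null replicates 1 and 2, and blue triangles *Cmah*-null replicate 3, and pale symbols mark the 10 genes not detected on all 6 arrays. Red circles lie to the right of every open circle in 28 of 39 genes, and triangles in 13.

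The OAS family held the highest class median, 0.89 over its 7 genes, and 4 of the 8 calls (1.61% of all symbols were called higher). These enzymes make 2′-5′-linked oligoadenylates on binding double-stranded RNA and so switch on RNase L, while the OAS-like proteins act without that product or beside it. *Oasl2* had log2 signals of 9.92, 10.88 and 10.70 in WT and 12.38, 12.42 and 11.84 in *Cmah*-null samples. The groups did not overlap, and the log2 difference was 1.72 (SE 0.30), or 3.29-fold, with an adjusted p = 0.396 in limma. *Oas2* had 7.83, 8.08 and 8.02 in WT and 9.33, 9.29 and 8.58 in *Cmah*-null tissue, a difference of 1.09 (SE 0.22, adjusted p = 0.397). In both genes *Cmah*-null replicate 3 was the lowest of its group and still above WT.

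*Oas1g* had log2 signals of 7.72, 8.41 and 8.33 in WT and 9.41, 9.35 and 8.48 in *Cmah*-null samples, a difference of 0.92 (SE 0.31, adjusted p = 0.546). *Oasl1* had 7.48, 7.69 and 7.51 in WT and 8.91, 8.62 and 7.82 in *Cmah*-null samples, a difference of 0.89 (SE 0.28, adjusted p = 0.529). Here replicate 3 passed the highest WT array only narrowly. The remaining members, *Oas1a*, *Oas1b* and *Oas3*, were dim. *Oas1a* and *Oas3* were detected on no array, although the *Oas1a* groups did not overlap (WT 7.19, 7.13 and 7.05, *Cmah*-null 7.32, 7.24 and 7.20), and a difference of 0.13 there is one between signals at background. *Oas1b* was detected on 2 arrays, *Cmah*-null ones, and no fold is given for it. The *Oas1* genes are near copies of each other, and how far their probes share transcripts was not tested.

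Sensors of foreign nucleic acid had a median of 0.32 over 6 genes, below that of the OAS family. There were 0 calls, where 1.61% of all symbols were called higher. Leaving out *Cmah*-null replicate 3 gave 2 (*Dhx58* and *Eif2ak2*), where 2.02% of all symbols were called higher. *Dhx58*, which encodes the RIG-I-like helicase LGP2, had log2 signals of 8.20, 8.35 and 8.24 in WT and 9.50, 9.39 and 8.27 in *Cmah*-null samples. Replicate 3 was at the WT level, and the difference of 0.79 (SE 0.33) had an adjusted p = 0.595. *Eif2ak2*, the kinase PKR that halts translation on double-stranded RNA, had 9.73, 10.27 and 10.04 in WT and 11.01, 10.96 and 9.62 in *Cmah*-null samples, with replicate 3 below every WT array.

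*Adar* is the RNA-editing enzyme that marks cellular double-stranded RNA as self. The signals of its brightest probe were 9.30, 9.24 and 9.39 in WT and 9.43, 9.64 and 10.05 in *Cmah*-null samples, so that replicate 3 was the highest of all, with a difference of 0.39 (SE 0.17, adjusted p = 0.599). On its second probe detected on 6 arrays, *Adar* had 8.01, 7.91 and 7.92 in WT and 8.37, 8.25 and 8.18 in *Cmah*-null samples, so that the groups again did not overlap but replicate 3 was the lowest of its group. *Zbp1*, a sensor of Z-form nucleic acid, had 8.44, 8.74 and 8.73 in WT and 8.91, 8.997 and 8.75 in *Cmah*-null samples, a difference of 0.25 (SE 0.12, adjusted p = 0.627). Of the other RNA helicases, *Ddx58* (RIG-I) was detected on 3 WT and 2 *Cmah*-null arrays with a difference of 0.08, and *Ifih1* (MDA5) on 1 array, where no fold is given.

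Among regulators the median was 0.55 over 6 genes. *Irf7*, the factor that amplifies type I interferon transcription, was the 1 gene called (1.61% of all symbols were called higher). Its signals were 8.02, 8.35 and 8.17 in WT and 9.64, 9.67 and 8.47 in *Cmah*-null samples, a difference of 1.08 (SE 0.34, adjusted p = 0.529), with no overlap. *Irf9*, a DNA-binding partner of STAT2, had 8.99, 9.03 and 9.45 in WT and 10.29, 10.30 and 9.21 in *Cmah*-null samples, a difference of 0.78 (SE 0.33, adjusted p = 0.598). Its other probe, detected on 5 arrays, differed by -0.03. There the signals were 7.73, 7.66 and 7.78 in WT and 7.92, 8.03 and 7.13 in *Cmah*-null samples. *Usp18*, which removes ISG15 from proteins and damps receptor signalling, had 8.93, 9.53 and 10.17 in WT and 11.00, 11.01 and 8.997 in *Cmah*-null samples, a difference of 0.79 (SE 0.63, adjusted p = 0.751). On the brightest probes of *Irf9* and *Usp18* replicate 3 lay inside the WT range. *Stat2* gave a smaller version of the same order, with 8.92, 8.99 and 9.04 in WT and 9.53, 9.46 and 8.92 in *Cmah*-null samples. The difference was 0.08 for *Trim25*, a ubiquitin ligase of RIG-I detected on 5 arrays, and 0.05 for *Irf1*, a factor induced strongly by type II interferon.

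Antiviral effectors had a median of 0.29 over 13 genes, with 2 called (1.61% of all symbols were called higher). *Ifitm3*, a membrane protein that hinders fusion of entering viruses, had signals of 13.09, 13.11 and 12.88 in WT and 14.64, 14.58 and 14.19 in *Cmah*-null samples. The lowest *Cmah*-null array was 1.16 above the WT mean, and the difference of 1.44 (SE 0.15), or 2.72-fold, had the smallest adjusted p of the list. *Rtp4* had 7.51, 7.50 and 7.52 in WT and 8.67, 8.61 and 7.60 in *Cmah*-null samples, a difference of 0.78 (SE 0.29, adjusted p = 0.570), carried by replicates 1 and 2.

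*Ifit3*, one of the proteins with tetratricopeptide repeats that bind viral RNA or each other, had the widest spread. Its signals were 10.58, 11.14 and 11.13 in WT and 12.96, 12.88 and 9.77 in *Cmah*-null samples. Replicates 1 and 2 were above every WT array and replicate 3 below every WT array, so the difference of 0.92 (SE 0.89, adjusted p = 0.794) was about as large as its error, and it was 1.97 without replicate 3. *Ifit2* followed the same order at lower signal (8.78, 8.62 and 8.79 against 9.49, 9.45 and 8.20). *Parp14*, an ADP-ribosyltransferase, had 9.70, 9.76 and 9.97 in WT and 10.94, 10.98 and 9.73 in *Cmah*-null samples, a difference of 0.74 (SE 0.35, adjusted p = 0.629).

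Of the other effectors, *Trim30* (0.41), *Samhd1* (0.29), *Bst2* (0.25) and *Ifi35* (0.02) differed by less than 1.5-fold, and *Ifit1* and *Ifi44* were detected on no array. *Rsad2*, the antiviral enzyme viperin, was set by a single WT array, with 10.59, 12.09 and 10.60 in WT and 11.24, 11.26 and 11.19 in *Cmah*-null samples, a difference of 0.14. Without that array, WT replicate 2, it was called higher (0.948% of all symbols were). *Ifi27* had 12.73, 13.30 and 14.39 in WT and 14.04, 14.00 and 11.56 in *Cmah*-null samples, so its difference was -0.27 with all arrays and 0.55 without replicate 3.

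GTPases had a median of 0.25 over 7 genes and of 0.58 over the 5 detected on at least 3 arrays, and the median over all 7 was 1.02 without *Cmah*-null replicate 3, the widest such move of the 5 classes. *Mx2*, a dynamin-like GTPase, was the 1 of them called (1.61% of all symbols were called higher). It had 7.74, 7.93 and 8.04 in WT and 8.97, 9.11 and 8.11 in *Cmah*-null samples, a difference of 0.83 (SE 0.28, adjusted p = 0.544). *Igtp*, an immunity-related GTPase of vacuoles, had 9.71, 9.60 and 10.27 in WT and 11.12, 11.00 and 9.46 in *Cmah*-null samples, a difference of 0.67 (SE 0.48, adjusted p = 0.730). The guanylate-binding proteins, which coat the vacuoles of microbes, ran the same way. *Gbp3* had 9.55, 9.41 and 9.31 in WT and 10.58, 10.58 and 8.85 in *Cmah*-null samples (difference 0.58, or 1.49-fold), and *Gbp2* had 10.27, 10.39 and 10.82 against 11.52, 11.51 and 9.20 (difference 0.25). In *Igtp*, *Gbp2* and *Gbp3* replicates 1 and 2 were above and replicate 3 below every WT array.

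*Irgm1*, a regulator of the other immunity-related GTPases, gave opposite signs on its 2 probes detected on 6 arrays (-0.50 and 0.28). The brightest had 13.38, 14.03 and 14.31 in WT and 13.45, 13.50 and 13.27 in *Cmah*-null samples, and the difference of -0.50 (SE 0.24, adjusted p = 0.633) was the lowest of the 39. Without WT replicate 1 it was called lower, the only gene of the list to be so when single arrays were left out. *Mx1* was detected on 1 array and *Iigp1* on none.

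The classes were compared by their medians on each array, as a description. The median shift of a class from the WT mean lay between -0.16 and 0.17 on the WT arrays. On *Cmah*-null replicates 1 and 2 it was 1.25 and 1.06 for the OAS family, 1.02 and 1.02 for GTPases, 0.84 and 0.81 for regulators, 0.57 and 0.61 for effectors and 0.29 and 0.35 for sensors. On replicate 3 the OAS family was at 0.26, sensors at 0.06, regulators at -0.00, effectors at -0.08 and GTPases at -0.40. Thus the OAS family and GTPases stood together on the first pair of arrays and furthest apart on the third. These medians include genes near background (*Oas1a*, *Oas1b*, *Oas3*, *Ifih1*, *Ifit1*, *Ifi44*, *Mx1* and *Iigp1*). Over genes detected on at least 3 arrays, the median difference between genotypes was 1.01 for the OAS family and 0.58 for GTPases. It was 0.55 for regulators, 0.39 for sensors and 0.31 for effectors.

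**Figure D2:**
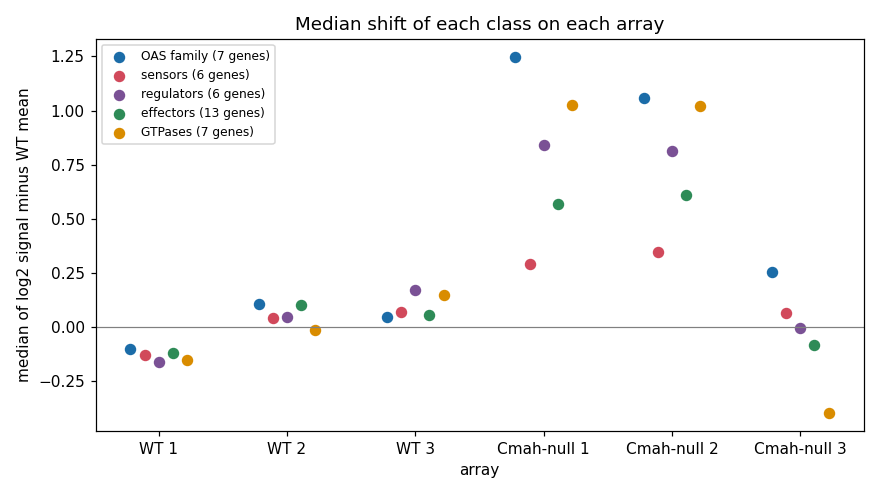
Median over the genes of each class of the log2 signal minus the WT mean (y axis) on each of the 6 arrays (x axis), 1 point per class. All 5 classes are above their WT points on *Cmah*-null replicates 1 and 2, and on replicate 3 they spread from 0.26 for the OAS family to -0.40 for GTPases.

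The contrast between the *Cmah*-null arrays held for most single genes. Replicates 1 and 2 were both above all WT arrays for 28 of 39 genes, against 3556 of 18138 symbols. Replicate 3 was above all WT arrays for 13 of the 39 (6693 of all symbols) and below all of them for another 13 (5400 of all symbols), shares close to those of all symbols. It was below both other *Cmah*-null arrays for 32 of the 39 (7252 of all symbols). Replicate 3 lay at least 1 log2 unit from the WT mean for *Oasl2* (1.34) and *Ifitm3* (1.16) on the high side, and for *Ifit3* (-1.18), *Gbp2* (-1.29) and *Ifi27* (-1.91) on the low side.

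**Figure D3:**
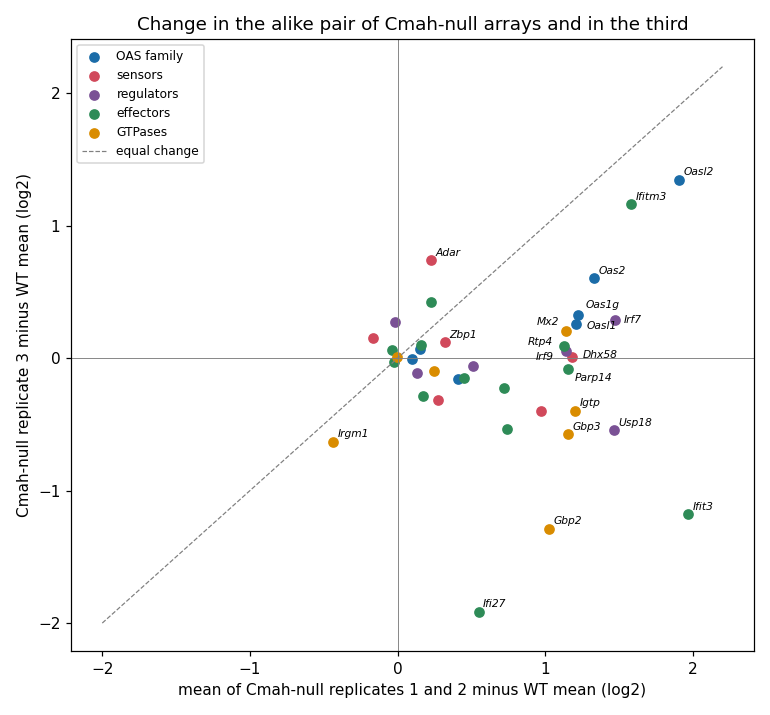
For each of the 39 genes, the mean log2 signal of *Cmah*-null replicates 1 and 2 minus the WT mean (x axis) and *Cmah*-null replicate 3 minus the WT mean (y axis), coloured by class, with a dashed line of equal change. Most genes lie below the line, *Oasl2* and *Ifitm3* are high on both axes, *Adar* (brightest probe) lies above the line, and *Ifit3*, *Gbp2* and *Ifi27* are positive on x and negative on y.

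Promoter letters did not order the genes in one way. The 16 genes with an ISRE match and a probe had a median log2 difference of 0.29, and the 11 with a window but no match had 0.31. Without *Cmah*-null replicate 3 the medians were 0.62 and 0.23. For GAS letters the medians were 0.30 with a match (10 genes) and 0.32 without (17 genes), and 0.34 and 0.72 without replicate 3. These are medians with no test.

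Several genes had more than 1 probe detected on 6 arrays. The probes of *Oasl2* differed by 1.72 and 0.95 between genotypes, and on the dimmer one the *Cmah*-null signals were 9.003, 9.02 and 7.82 against 7.80, 7.52 and 7.68 in WT, so replicate 3 was close to WT there. Those of *Gbp3* gave 0.58 and 0.50, of *Adar* 0.39 and 0.32, and of *Ifit2* 0.31 and 0.25. The dimmer of the *Irgm1* probes had 8.43, 8.63 and 8.89 in WT and 9.33, 9.24 and 8.22 in *Cmah*-null samples, the order seen in *Igtp*. Those of *Irf1* were at 0.05 and -0.01.

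**Figure D4:**
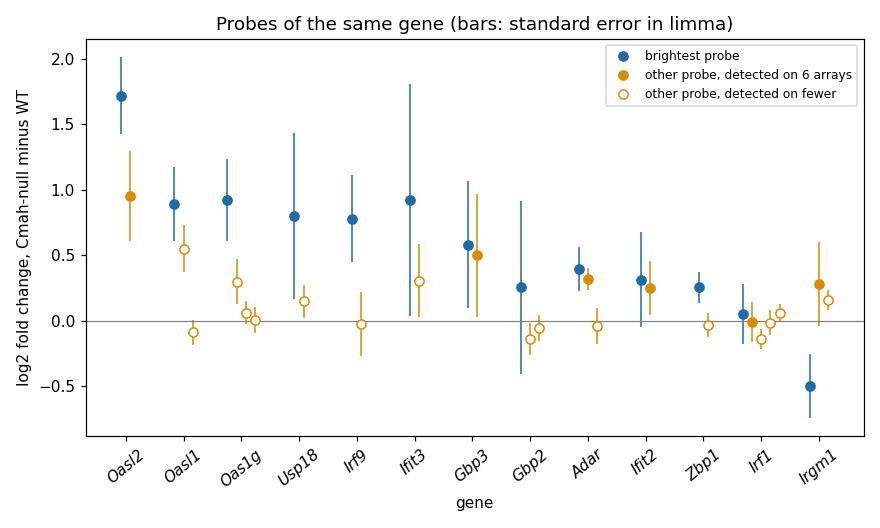
Log2 difference between genotypes (y axis) of each probe of 13 genes with several probes (x axis), with bars for the standard error in limma. Filled points are probes detected on all 6 arrays, blue for the brightest probe and orange for others, and open points were detected on fewer. The filled points of *Irgm1* lie on both sides of 0, and both probes of *Oasl2* lie above it.

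The other genes of the pathway were taken from lists by role. Of 19 ligand and receptor genes, 17 were on the array and 10 were detected on no array, among them *Ifnb1*, *Ifng*, *Ifnk*, 6 *Ifna* genes and the receptor chain *Ifnar1*. *Ifna1* was detected on all 6 arrays, at 7.85, 7.74 and 7.90 in WT and 7.91, 7.76 and 7.99 in *Cmah*-null samples, a difference of 0.05. None was called higher (1.61% of all symbols were), and 1 was called lower (1.46% of all symbols were). This was *Ifngr2*, a chain of the type II interferon receptor, with 10.31, 11.13 and 11.36 in WT and 10.14, 10.26 and 10.22 in *Cmah*-null samples, a difference of -0.73 (SE 0.27, adjusted p = 0.570). *Ifnar2* differed by 0.14 and *Ifngr1* by -0.06.

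Of 24 signalling genes, 21 were on the array, with 1 called higher (1.61% of all symbols were) and 0 lower (1.46% of all symbols were). The 1 called higher was *Socs3*, a feedback inhibitor of cytokine receptors, with 8.997, 8.86 and 9.12 in WT and 9.85, 9.88 and 10.95 in *Cmah*-null samples, a difference of 1.23 (SE 0.31, adjusted p = 0.449). Its highest array was replicate 3, unlike most interferon-induced genes.

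Of 44 further interferon-induced genes, 36 were on the array, and their median was 0.16, with 29 above 0 and 7 below. The 5 called higher were *Lgals3bp* (1.07), *Pml* (0.90), *Ly6e* (0.87), *Lgals9* (0.68) and *Ifitm2* (0.59), and 0 were called lower. Of all symbols, 1.61% were called higher and 1.46% lower. *Ly6e*, a surface protein that restricts entry of some viruses, had 11.51, 11.18 and 11.30 in WT and 12.09, 12.24 and 12.26 in *Cmah*-null samples (SE 0.11, adjusted p = 0.365). *Pml*, the organizer of nuclear bodies, had 9.91, 9.83 and 9.66 in WT and 10.48, 10.56 and 11.07 in *Cmah*-null samples (SE 0.18, adjusted p = 0.397). In both genes all 3 *Cmah*-null arrays were above WT and replicate 3 was the highest. *Ifitm2*, the close relative of *Ifitm3*, had 11.05, 11.23 and 11.09 in WT and 11.85, 11.82 and 11.47 in *Cmah*-null samples, again without overlap.

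**Figure D5:**
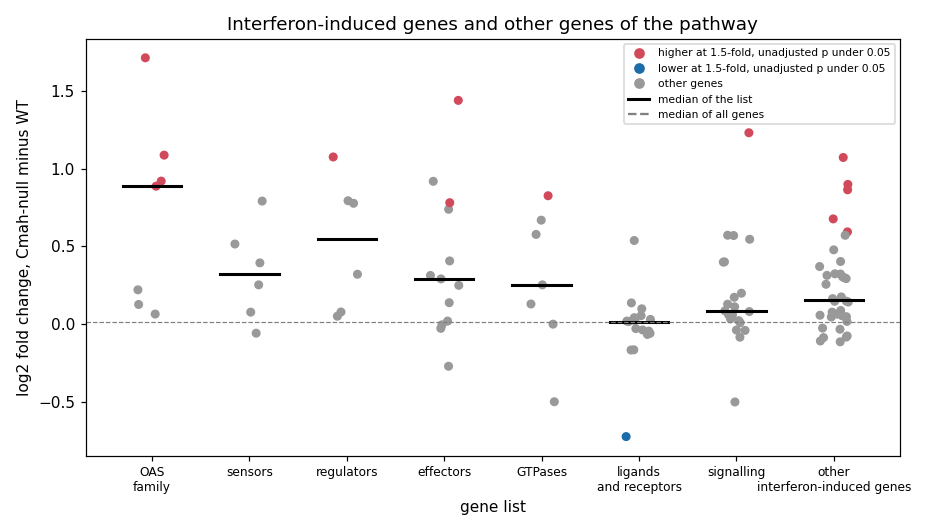
Log2 difference between genotypes (y axis) of each gene in the 5 classes of interferon-induced genes and in 3 further lists of the pathway (x axis). Red points were higher and blue points lower at 1.5-fold with an unadjusted p under 0.05, black bars are list medians, and the dashed line is the median of all symbols, 0.01. The medians run from 0.89 in the OAS family to 0.02 in ligands and receptors.

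Some macrophage markers had the order of the interferon-induced genes across the *Cmah*-null arrays and others did not. All 12 were on the array, 11 were detected on all 6 arrays and *Itgam* on none. Their median shift from the WT mean was 0.40 and 0.47 on *Cmah*-null replicates 1 and 2 and -0.22 on replicate 3. Their summed linear signal, most of it from *Lyz* and *Lyz2*, ran from 96930 to 114700 in WT and was 117500, 117300 and 77760 in *Cmah*-null samples. *C1qb*, a complement subunit made by macrophages, had 10.19, 10.11 and 10.42 in WT and 11.26, 11.53 and 9.66 in *Cmah*-null samples. *Csf1r*, the receptor that macrophages need for survival, had 9.38, 9.57 and 9.78 in WT and 9.29, 9.45 and 10.25 in *Cmah*-null samples, with replicate 3 the highest. None of the 12 was called between genotypes, where 1.61% of all symbols were called higher and 1.46% lower. Plasmacytoid dendritic cell markers summed to 9671 to 16560 in WT and 11780 to 15510 in *Cmah*-null samples, most of it from *Tcf4*. Of these markers, 5 of 6 were on the array and 4 were detected on all arrays. B cell markers summed to at most 1342 on any array, with *Ms4a1* and *Igj* undetected, and T and NK cell markers to at most 1659, with *Cd4* and *Cd8a* undetected. Neutrophil and marrow genes summed to 80520 to 109200 in WT and 81850 to 97360 in *Cmah*-null samples. Most of this sum came from *Ltf*, at 15.92 to 15.99 on every array. Their median shifts on the *Cmah*-null arrays were 0.55, 0.45 and -0.01, but the genes were mixed. Only in *Ngp* and *Lcn2* were replicates 1 and 2 both above every WT array. *Mpo* was highest on replicate 3 (11.20, 11.11 and 12.42 in *Cmah*-null samples). Brown fat genes had sums of 34200 to 55100 in WT and 20100, 20380 and 6810 in *Cmah*-null samples, and 3 of 5 were called lower (1.46% of all symbols were). Skeletal muscle markers had median shifts of -0.70, -0.72 and 0.05 on the *Cmah*-null arrays, and erythroid markers of -0.51, -0.43 and -0.99. The part of these cell types in the differences of the interferon-induced genes was not tested.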

How the data were processed

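Total RNA of cochlear tissue from 3 WT and 3 *Cmah*-null samples (mice, 3 per group, in the study's methods) was hybridized to 1 Illumina array per sample. Per the file headers, the authors deposited the average bead signal as intensity values without normalization, with a detection p-value from the scanner software and the bead number of each probe. A second deposited table holds log2 values that the authors made by quantile normalization, which compresses differences between arrays in overall signal. It also holds the authors' own comparison (a signed fold change, a local pooled error statistic and an adjusted p), which was not used, nor were 12 columns that repeat signals and detection p. Its columns name the second group "old", and they were matched to *Cmah*-null as the only other group, by number.

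The log2 values were compared in R 4.3.3 by the moderated test of limma 3.58.1, two-sided and without covariates, over all 25697 probes, with Benjamini-Hochberg adjustment over all probes, and the brightest probe was taken per symbol. The fit was tested on simulated data. Genes were counted at 1.5-fold (0.585 on the log2 scale) with an unadjusted p under 0.05, at an adjusted p under 0.05, and where groups did not overlap. A gene detected on no array of a group has only a bound there, and no fold is given where that bound is below 1. The members, classes, pathway lists and markers were chosen with earlier results of these data known. Values on each array are given for members at 1.5-fold, with no overlap or with an unadjusted p under 0.05, and a few others were named for their role or after their values were seen. Of the pathway lists, called genes and receptors were named, and 1 other gene that the rule covers is not reported here. The number of arrays limits the precision. Motif letters were searched with Python 3.11.15, and figures were drawn with matplotlib 3.10.9.

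The alternatives were neqc (offset 16), median scaling, probes detected on at least 3 arrays, a replicate block, each array left out, *Cmah*-null replicates 1 and 2 averaged, the number of beads as a block, another variance prior, the mean of all probes of a gene and other class membership of *Mx1* and *Mx2*.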

Additional observations from a re-analysis of the deposited data

How the results depend on the processing

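The count of 8 interferon-induced genes higher at 1.5-fold with an unadjusted p under 0.05 became 13 with median scaling and 3 with *Cmah*-null replicates 1 and 2 averaged, and ran from 3 to 19 with single arrays left out. It was 8 with neqc (3.53% of all symbols against 1.61%), 9 of 31 with probes detected on at least 3 arrays (2.69%), 6 with the number of beads as a block (4.17%) and 10 with the other prior (1.81%). Under median scaling 11.8% of all symbols were called higher and the median of symbols detected on 6 arrays was 0.34 in place of 0.04, so the member median of 0.67 there, in place of 0.31, stands on a shifted scale. The replicate block gave 7 genes (1.96% of all symbols), but the numbers did not pair the samples, since same-numbered arrays deviated with correlations of 0.02, -0.17 and 0.01. The count of lower genes ran from 0 to 1 with arrays left out, the 1 being *Irgm1* without WT replicate 1. The OAS family median of 0.89 was 1.46 with neqc, and the GTPase median of 0.25 ran from 0.064 (without *Cmah*-null replicate 2) to 1.02 with arrays left out, the highest without *Cmah*-null replicate 3. No value changed sign for the 17 members at 1.5-fold or without overlap under 13 alternatives (12 for *Oas1a*, which the detection filter removes), and none reached an adjusted p under 0.05. Signal near background limits *Oas1a*, *Oas1b*, *Oas3*, *Ifit1*, *Ifi44*, *Iigp1*, *Mx1*, *Ifih1* and, on 1 array each, *Ddx58* and *Trim25*.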
